A study of Homo sapiens with 2 samples.

Results

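HTO_G cells are the PC9 lung cancer cells that carried the hashtag named HTO_G in a pooled single-cell experiment. They were chosen by their counts of unique molecular identifiers (UMIs), in which copies of 1 molecule made by PCR are counted a single time. A droplet barcode was taken when HTO_G was its highest hashtag, reached 10 UMIs or more, and had no less than 3 times the UMIs of the second highest hashtag. This gave 1696 of the 15324 barcodes (11.1%, exact binomial 95% interval 10.6% to 11.6%). The same rule assigned 14011 barcodes to the 8 hashtags together. The other 7 sets ranged from 926 cells for HTO_H to 2484 for HTO_C. Because the UMI counts chose the cells, all levels below are descriptions without a test, and all intervals cover counting error only.

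The pool held 8 untreated populations of PC9, a non-small cell lung cancer line of human origin with a deletion in exon 19 of EGFR. The line versions were PC9-MGH, PC9-VU and PC9-BR1, and DS3, DS6, DS7, DS8 and DS9 were sublines that each came from 1 PC9-VU cell. Escalating doses of the EGFR inhibitor afatinib had turned PC9-VU into PC9-BR1, the only population labelled as carrying EGFR T790M. All populations carried a nuclear label, were grown in RPMI medium with serum and had 8 to 10 passages, and each was stained with 1 ng of its own TotalSeq-A antibody before pooling. No label states which population carried HTO_G, so the staining cannot be assigned to a version or a subline, and differences of antibody and of population cannot be told apart. No gene counts were used, so the identity of the cells was not checked against marker genes. There was 1 pooled library without replicates, and both matrices described the same 15324 barcodes.

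In cell hashing, an antibody against proteins found on the surface of most human cells carries a short DNA tag, the hashtag oligonucleotide. The tag is captured in the droplet together with the RNA of the cell. The count of a cell's own tag therefore depends on how much antibody the cell bound and how much of the tag was captured and sequenced. Tags of the other antibodies also appear at low counts, and antibody that is free in the suspension is a known source of them.

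Each hashtag is a designed sequence of 15 bases with no position in the genome. The sequence of HTO_G is shown with those of HTO_D and HTO_H, the most and the least abundant of the other hashtags inside HTO_G cells, and of HTO_F, which differed from HTO_G at the most positions. Capitals mark the bases that differ from HTO_G at the same position.
HTO_G: tgtctttcctgccag
HTO_D: AgtAAGtTcAgcGTA
HTO_H: CTCctCtGcAATTaC
HTO_F: GgtTGCCAGATGTCA
HTO_D differed from HTO_G at 9 of 15 positions, the lowest number among the other 7 hashtags, and HTO_F differed at 13. HTO_G had 8 G or C bases, as did HTO_B, HTO_C and HTO_F.

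HTO_G cells were brightly labelled. The 1696 cells ranged from 114 to 3868 HTO_G UMIs, with a median of 1554.5 and a 25th to 75th percentile of 1267 to 1822. In reads, which still contain PCR copies of the same molecules, they ranged from 194 to 34130, with a median of 5638.5 and a 25th to 75th percentile of 3586 to 8321. Reads and UMIs are thus not independent readouts, and they ordered the cells almost identically (Spearman's rho 0.993 over 1696 cells). Summed over the cells, HTO_G had 2588202 UMIs and 11008394 reads.

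The median was the highest of the 8 hashtags in both kinds of count. HTO_A and HTO_D came next in UMIs with 1400 and 1393, which placed HTO_G at 1.11 and 1.12 times their level. It stood at 1.21 times the level of HTO_C, 1.24 times that of HTO_F and 1.30 times that of HTO_E. HTO_H and HTO_B lay much lower, at 719.5 and 338 UMIs, and HTO_G exceeded them 2.16 and 4.599 times. The spread within each set was larger than most of these differences. The 25th to 75th percentile of HTO_G overlapped that of every hashtag except HTO_B and HTO_H, and 40.1% of the HTO_A cells and 44.0% of the HTO_D cells lay above the HTO_G median.

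The lead of HTO_G was larger in reads. There the median was 1.26 times that of HTO_A and 1.28 times that of HTO_D, and 9.14 times that of HTO_B. The lead did not extend to the brightest cells. The 95th percentile of HTO_G was 2358 UMIs, below 2665 for HTO_D, 2579 for HTO_A and 2419 for HTO_F. The 25th percentile showed the opposite, since 1267 UMIs for HTO_G compared with 1006 for HTO_A, the next highest.

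**Figure D1:**
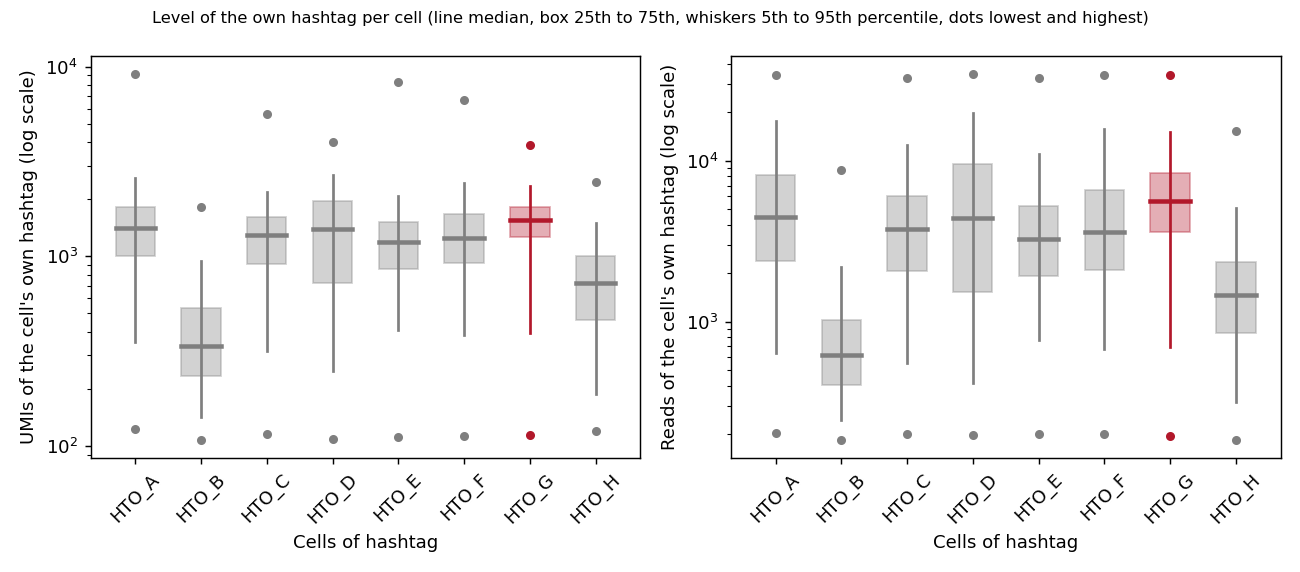
UMIs (left) and reads (right) of the cell's own hashtag on log axes for the cells of the 8 hashtags, with the median as a line, the 25th to 75th percentile as a box, the 5th to 95th percentile as whiskers, and the lowest and highest cell as dots. HTO_G (red) has the highest median, 1554.5 UMIs and 5638.5 reads, and its box in UMIs is narrow, whereas its lower whisker reaches 395 UMIs, close to those of HTO_A, HTO_E and HTO_F.

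Staining of HTO_G was even in the middle of the distribution. The 75th percentile was 1.44 times the 25th percentile in UMIs, compared with 1.77 for HTO_E, the next lowest, and 2.68 for HTO_D, the highest. Counting error alone would give a ratio of 1.03 at the HTO_G level, so the cells differed by more than counting error. Of the 1696 cells, 1547 lay between 0.5 and 2 times the median (91.2%, 89.8% to 92.5%). This share was 86.3% for HTO_E (84.7% to 87.7%), the next highest, and 73.5% for HTO_D, the lowest. The counting intervals of HTO_G and HTO_E did not overlap, but they cover counting error only and cells of 1 library are not replicates. The coefficient of variation was also lowest for HTO_G, at 35.2% of the mean, against 43.7% for HTO_C.

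In reads the evenness was less distinct. The 75th percentile was 2.32 times the 25th, and 70.7% of HTO_G cells lay between 0.5 and 2 times the median (68.5% to 72.9%). HTO_B had 69.3% (66.9% to 71.7%), so the intervals overlapped. With the required ratio to the second hashtag raised from 3 to 10, HTO_B reached 80.4% and HTO_H 73.32%, and HTO_G with 73.28% ranked below both.

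Cells above 2 times the median were rare among HTO_G cells. There were 5 in UMIs (0.295%, 0.0958% to 0.687%), compared with 1.77% of HTO_C cells, the next lowest, and 13.5% of HTO_B cells. In reads there were 207, or 12.2% (10.7% to 13.9%), again the lowest of the 8 hashtags.

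The low end did not share this evenness. Below 0.25 times the median there were 85 HTO_G cells in UMIs (5.01%, 4.02% to 6.16%). HTO_A with 4.92% and HTO_C with 5.11% had similar shares, HTO_D had 8.30% and HTO_E had 2.74%. In reads the HTO_G share was 7.43% (6.23% to 8.78%). Of the other 5 hashtags of similar level, HTO_E had the lowest share in reads with 5.76%, HTO_C had 9.82% and HTO_D the highest with 17.4%. With the required ratio to the second hashtag raised from 3 to 10, which removes weak cells by construction, the HTO_G share was 1.96% in UMIs and 4.49% in reads. Below 0.1 times the median there were 21 HTO_G cells in UMIs (1.24%, 0.768% to 1.89%), the highest share of the 8 hashtags. HTO_D followed with 0.980% (0.591% to 1.53%), with an overlapping interval, and HTO_A with 0.420% (0.169% to 0.863%). In reads HTO_D had the highest share, 5.52%, and HTO_G followed with 4.48% (3.55% to 5.58%).

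These shares depend on how far the cells taken by the rule reach below each median. The lowest cell of every hashtag had between 108 and 122 UMIs, which was 7.33% of the median for HTO_G and 32.0% for HTO_B, and none of the HTO_B cells taken by the rule was below 0.25 times the median. No barcode in the matrices had fewer than 202 reads in all, including sequences that matched no hashtag. At a fixed level instead, 60 HTO_G cells had under 256 UMIs (3.54%, 2.71% to 4.53%). HTO_A, HTO_C and HTO_F had 3.06%, 3.34% and 3.02%, within the counting interval of HTO_G, whereas HTO_D with 5.31% lay above it and HTO_E with 2.14% below it. The ratio of the 95th to the 5th percentile, which includes the low end, was 5.97 for HTO_G in UMIs. Only HTO_E was lower with 5.08, and HTO_D had the highest ratio, 10.8. In reads HTO_G, with 21.7, had a wider range by this measure than HTO_B, HTO_E and HTO_H, which had 8.94, 14.4 and 16.01.

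Among the cells taken by the rule, HTO_G numbers dipped between the weak and the bright cells. In bins of 0.5 on the log2 scale, 34 cells had 128 to 181 UMIs, 22 had 182 to 255, 22 had 256 to 362, and 11 had 363 to 511. The number then rose to 39 cells at 512 to 724 UMIs and to 785 at 1449 to 2047, the fullest bin. The dip from 34 (exact Poisson 95% interval 23.5 to 47.5) to 11 cells (5.49 to 19.7) was a fall of 3.09 times. In HTO_A the only fall below the fullest bin was from 24 to 23 cells, and in the remaining 6 hashtags the number did not fall between bins below the fullest one. The bins were chosen after the values were seen, and for each hashtag the pair of bins with the largest fall below the fullest bin was taken. The intervals of a pair picked in this way cannot serve as a test of a dip. With bins moved by 0.25, the HTO_G numbers fell from 30 to 13 cells, and HTO_F was the only other hashtag with a fall, from 27 to 26. At a ratio of at least 10 the largest HTO_G fall was from 13 to 10 cells, so the fall of 3.09 times rests on weak cells with a ratio between 3 and 10. Below 128 UMIs 4 HTO_G cells remained, and the lowest cell of every hashtag had 108 to 122 UMIs. A second peak therefore cannot be told from a tail cut at its low end.

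**Figure D2:**
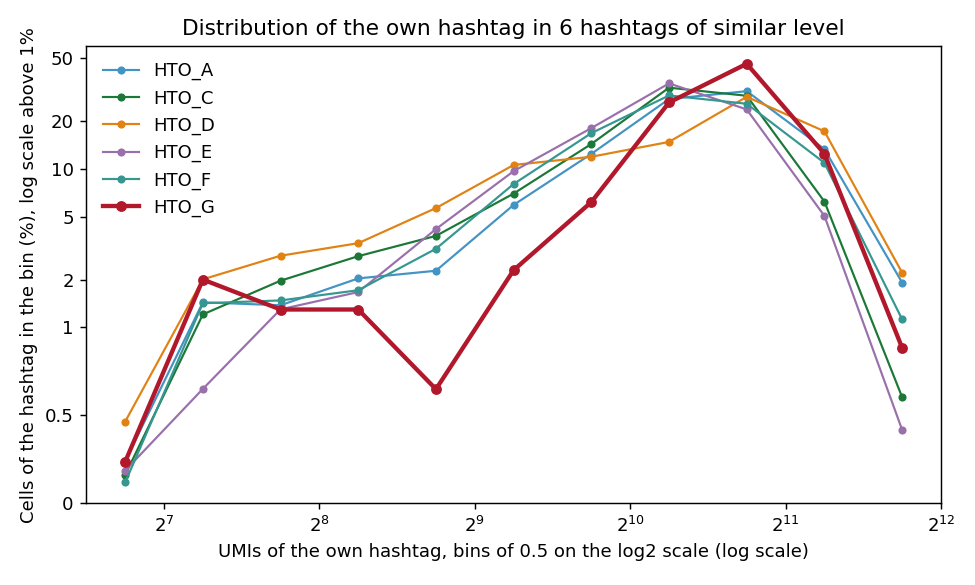
Percent of cells (vertical axis, log scale above 1%) in bins of 0.5 on the log2 scale of own-hashtag UMIs (horizontal axis, log scale), for HTO_G in red and the 5 hashtags with similar medians. HTO_G has the tallest peak, 46.3% of cells at 1449 to 2047 UMIs, and a dip to 0.649% at 363 to 511 UMIs between this peak and 2.00% at 128 to 181 UMIs, whereas the other lines rise to their peaks almost without a fall.

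Compared with most brighter cells, most of the 85 weak HTO_G cells carried fewer UMIs of the other hashtags. Their HTO_G level ranged from 114 to 378 UMIs, with a median of 194, and from 194 to 726 reads, with a median of 313. The 7 other hashtags together had a median of 105 UMIs in them (25th to 75th percentile 49 to 125). In the 1611 brighter cells the median was 145 (125 to 164.5). In 17 of the 85 weak cells these 7 hashtags had under 40 UMIs (20%, 12.1% to 30.1%), compared with 11 of the 1611 brighter cells (0.683%, 0.341% to 1.22%). The value of 40 was chosen after seeing the data. The rule also leaves out weak barcodes in which another hashtag is high, such as 1 with 112 HTO_G and 38 HTO_D UMIs. It thereby limits the other hashtags more in weak than in brighter cells, and the effect of this limit on the differences was not tested. Cells under 40 UMIs of the other hashtags were also present among the weak cells of HTO_A, HTO_D and HTO_F, at 22.0%, 22.4% and 30.4%. HTO_C and HTO_E had them at 10.2% and 15.3%, whereas none of the 41 weak HTO_H cells had so few (0% to 8.60%).

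Some weak HTO_G barcodes resembled a brighter barcode in sequence. Of the 85, 15 had an HTO_G-brighter barcode that differed at 1 of the 16 bases of the droplet barcode (17.6%, 10.2% to 27.4%). Among the 1611 brighter cells 2 had one (0.124%, 0.0150% to 0.448%), but a bright cell can rarely have a brighter partner. A barcode 1 base away of any level was found for 15 of the 85 and 15 of the 1611. Brighter partners were also found among the weak cells of other hashtags, with 27 of 161 for HTO_D, 12 of 82 for HTO_A and 11 of 69 for HTO_F. HTO_E had 9 of 59 and HTO_C 12 of 127, and there were none among the 41 of HTO_H. Among the 17 HTO_G cells with under 40 UMIs of the other hashtags, 9 had such a partner. In all, 17 of the 129 pairs of barcodes 1 base apart contained an HTO_G cell. In 14 pairs both were HTO_G cells, in the other 3 the partner failed the rule with HTO_G as its highest hashtag, and no partner was a cell of another hashtag. In the 14 pairs the brighter barcode had a median of 25.02 times the HTO_G reads of the weaker one. Without the barcode that had fewer reads in each pair, 4.17% of HTO_G cells were below 0.25 times the median (3.26% to 5.24%), and without cells that had under 40 UMIs of the other hashtags it was 4.08% (3.18% to 5.14%). The dip was still present without the cells that had a brighter partner, from 31 to 10 cells.

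**Figure D3:**
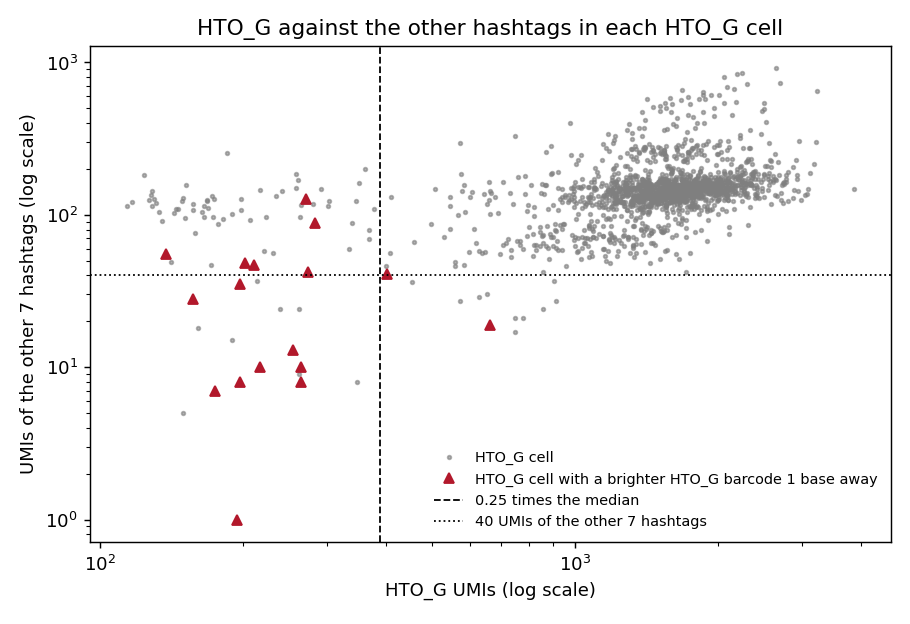
HTO_G UMIs (horizontal axis) against UMIs of the other 7 hashtags (vertical axis), both on log scales, for each of the 1696 HTO_G cells, with triangles for the 17 cells that have a brighter HTO_G barcode 1 base away. Left of the dashed line at 0.25 times the median lie 85 cells, of which 17 fall below the dotted line at 40 UMIs of the other hashtags, and most triangles lie among these weak cells.

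HTO_G was low and uniform in cells of the other hashtags. Over the 12315 cells assigned to the other 7 hashtags, the median was 13 HTO_G UMIs and 20 reads, and it was 12 or 13 UMIs in each of the 7 sets. The 99th percentile was 36.9 UMIs. The highest value was 442 UMIs in an HTO_C cell, and 11 of the 12315 cells reached 114 UMIs, the lowest value of an HTO_G cell. The median in HTO_G cells was 119.6 times the median in these cells in UMIs and 281.9 times in reads. Both sets were chosen by the hashtag counts, so a difference is built into the rule. Barcodes that failed the rule are in neither set, among them 194 with HTO_G highest and a median of 1680 HTO_G UMIs. Over all barcodes, HTO_G made up 14.7% of hashtag UMIs and 16.4% of hashtag reads, and 79.7% of all HTO_G UMIs lay in HTO_G cells.

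Inside HTO_G cells the other hashtags were present at low and graded levels. HTO_D was highest with a median of 32 UMIs (25th to 75th percentile 25 to 39) and HTO_H lowest with 9 (6 to 12). HTO_C had 25 UMIs, HTO_B 22, HTO_A 21, HTO_E 19 and HTO_F 11. HTO_D was the second highest hashtag in 1105 of the 1696 cells, or 65.2%, and HTO_C in 289. Together the 7 hashtags took a median of 8.22% of the hashtag UMIs of an HTO_G cell (25th to 75th percentile 7.05% to 10.4%).

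These levels were slightly higher than in other cells. The median of HTO_D was 28 to 30 UMIs in the 6 sets of cells labelled by neither HTO_D nor HTO_G, that of HTO_A was 18 or 19, and that of HTO_B 19 or 20. HTO_F had 10 and HTO_H 8 in each of the 6 sets, against 11 and 9 in HTO_G cells. HTO_C and HTO_E reached the same medians elsewhere, up to 25 and 19 UMIs. By the mean, HTO_E was within the range of the other sets, with 19.8 UMIs against 17.9 to 21.1, and the other 6 hashtags were above it. Differences of 1 to 3 UMIs are small beside the spread of each hashtag among HTO_G cells.

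The brightest HTO_G cells also had more of every other hashtag than the weakest ones. With the cells divided at the 25th, 50th and 75th percentile of HTO_G, the 7 hashtags together had medians of 116, 139, 147 and 159 UMIs from the weakest to the brightest group. HTO_D had 26, 32, 34 and 37 in this order. The rank correlation of HTO_G with the sum of the other 7 hashtags was 0.458 over the 1696 cells, and within the other sets it ranged from 0.178 for HTO_B to 0.341 for HTO_E. All counts of a barcode share its droplet and the library, and the rule limits the other hashtags in weak cells, so these values are descriptions. With HTO_G divided by the other 7 hashtags of the same cell, 86.0% of cells lay between 0.5 and 2 times the median in UMIs, less than the 91.2% without division, and in reads 74.5% did, more than 70.7%.

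**Figure D4:**
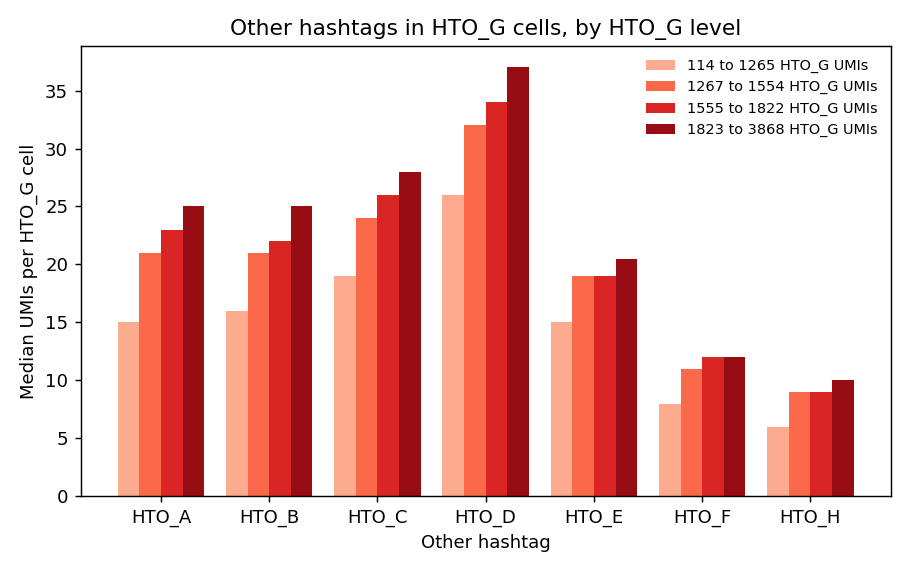
Median UMIs of each of the 7 other hashtags (bars, linear axis from 0) in HTO_G cells divided into 4 groups by HTO_G UMIs, from the weakest (lightest) to the brightest (darkest). HTO_D rises from 26 to 37 UMIs and HTO_H from 6 to 10.

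Sequences that matched no hashtag followed the HTO_G level closely. HTO_G cells had a median of 55 such UMIs (25th to 75th percentile 38 to 73), and these made up 3.37% of all their UMIs, near the lowest value of the 8 sets (3.09% for HTO_E) and below the highest (5.52% for HTO_B). The rank correlation with HTO_G UMIs was 0.910 over 1696 cells. This was not particular to HTO_G, since in the other 7 sets the correlation with the own hashtag ran from 0.580 for HTO_B to 0.965 for HTO_D. Per 100 HTO_G UMIs there were 3.13 unmatched UMIs in the weakest of the 4 groups and 4.53 in the brightest.

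The number of reads per UMI rose with the HTO_G level. Over all HTO_G cells it was 4.25. The 74 cells with under 500 HTO_G reads had 1.66 reads per UMI, the 724 cells with 4000 to below 8000 reads had 3.70, and the 69 cells with at least 16000 reads had 7.69. The other hashtags in the same cells did not follow, with 1.64 in the weakest and 1.69 in the brightest of the 4 groups of cells. At the same number of reads HTO_G lay within the range of the other hashtags in 6 of 7 ranges of reads. In the range of 4000 to below 8000 reads, the 6 hashtags with at least 20 cells lay between 3.56 and 3.72. From 2000 to below 4000 reads HTO_G had 2.68, above the 2.49 to 2.64 of the other 7 hashtags. A given ratio between cells is therefore larger in reads than in UMIs, which accompanies the wider spread in reads.

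**Figure D5:**
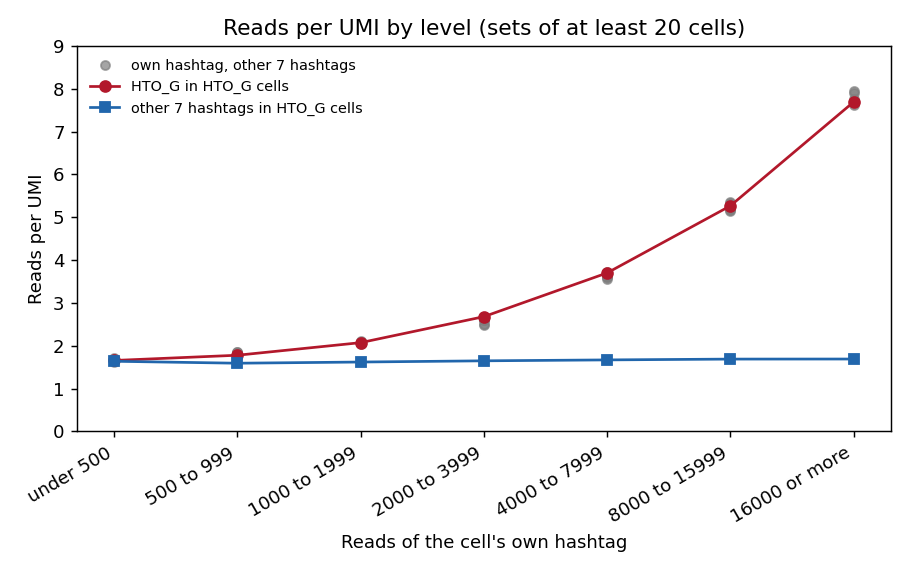
Reads per UMI (vertical axis, from 0) by the number of reads of the cell's own hashtag (horizontal axis), for HTO_G (red line), the own hashtag of the other 7 sets (grey dots) and the other 7 hashtags inside HTO_G cells (blue line), in sets of at least 20 cells. HTO_G rises from 1.66 to 7.69 and the grey dots lie close to it, while the blue line stays flat.

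Barcodes with HTO_G highest were left out only for the ratio, so a relatively high second hashtag in them is given by the rule. HTO_G was the highest hashtag in 1890 barcodes, and 194 of them were under the ratio of 3. In these 194 the median was 1680 HTO_G UMIs and 1116.5 UMIs of the second hashtag, which was most often HTO_D or HTO_E, with 41 barcodes each. In 11 of the 194, HTO_G was below 0.25 times the median of the HTO_G cells, down to 32 UMIs, so the low tail lacks them. The cells kept by the rule still held up to 819 UMIs of another hashtag, HTO_A. Among the 1696 cells, 1517 had a ratio of at least 20 and 53 a ratio between 3 and 5. The values next to the limit were of 2 kinds. Just inside lay a bright barcode with 1676 HTO_G and 557 HTO_C UMIs (ratio 3.01) and a weak one with 124 HTO_G and 39 HTO_D UMIs (3.18). Just outside lay one with 2632 HTO_G and 887 HTO_D UMIs (2.97) and one with 112 HTO_G and 38 HTO_D UMIs (2.95). Droplets with several HTO_G cells cannot be seen by this rule, and no doublet caller based on genes was run.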

How the data were processed

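The HTO library was counted by the authors with CITE-seq-Count, and raw counts per hashtag and droplet barcode were deposited as reads (filed under the mRNA library) and as UMIs. Its version, allowed mismatches and choice of barcodes are not given in the sources used here. Cell Ranger 3.0.2, per the labels, concerns the gene library. The labels give about 15400 cells obtained, against 15324 barcodes here. The unmapped row (3.98% of UMIs, 1.61% of reads) was left out of the rule. The gene and RNA minimums of the study were not applied.

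Cells were taken by the ratio rule in Python 3.11.15 (numpy 2.4.6, scipy 1.17.1), without normalization. Shares have exact binomial (Clopper-Pearson) and cell numbers exact Poisson 95% intervals. No p-value was computed, because cells of 1 library are not replicates. The cells and measures were chosen with earlier results of these data known. The named features were all 8 hashtags, with the highest and lowest of the other 7 inside HTO_G cells. The rule was run on simulated barcodes with the same spread for all hashtags, without doublets or an added weak tail. This run does not cover the ratio limit or the low end. Alternatives were ratios of 2 and 10, a minimum of 50 UMIs, read counts, HTODemux singlets (Seurat 5.3.0, R 4.3.3, centered log ratio over each hashtag, positive quantile 0.99, seed 42), removal of the smaller barcode of pairs 1 base apart, and division by the other hashtags. Figures were drawn with matplotlib 3.10.9.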

Additional observations from a re-analysis of the deposited data

How the results depend on the processing

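Over 8 alternatives, 82 of 97 values stayed within the counting interval of the reported one (for medians, the 95% order-statistic interval; for cell numbers, within 1.5 times; for ranks, equal). The minimum of 50 UMIs kept the same cells, so its values are equal by construction, and all counts here include it. Removal of cells with under 40 UMIs of the other hashtags was added after seeing the data. HTO_G had the highest median in UMIs and reads under all 7 ways of choosing cells, and the highest evenness in UMIs under all 8 alternatives. The number of cells ran from 1569 (HTODemux) to 1758 (read counts).

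With a ratio of at least 10, evenness was 94.2% in UMIs and 73.3% in reads (rank 3 of 8), the share below 0.25 times the median 1.96% in UMIs and 4.49% in reads, and the other hashtags took 8.06%; a stricter ratio removes weak cells by construction, and the dip in the HTO_G distribution was then 13 to 10 cells. Division by the other hashtags gave an evenness of 86.0% in UMIs and 74.5% in reads, and low shares of 3.77% and 5.90%. HTODemux gave 8.06% for the other hashtags and 4.21 reads per UMI, and read counts gave 4.30 reads per UMI. Without cells with under 40 UMIs of the other hashtags, evenness in UMIs was 92.6% and reads per UMI 4.26. The cause was not tested for any setting. The minimum of 50 UMIs removed no cell and tests nothing. No paired analysis was possible because the library has no replicates and no value comes from a test. The matrices hold no barcode below 202 reads, which limits what can be said of the low end.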
